A study of Homo sapiens with 6 samples.

Results

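Hi-C maps of 4 human cancer cell lines shared 1411 boundaries between topologically associating domains (TADs). In each line a boundary was a local minimum of the insulation score with a boundary strength of at least 0.1, and a shared boundary was a 40-kb bin that had such a minimum within 1 bin in all 4 lines. The 1411 shared boundaries made up 2.374% of the 59426 bins of chromosomes 1 to 22 that could be scored in every line. The insulation score is the log2 of the mean contact frequency across a bin, in windows of 1 Mb on either side, over the mean of the chromosome. The boundary strength is the rise of the difference between neighboring scores, taken over 200 kb, from the left to the right of the minimum, and is in log2 units as well. The insulation values therefore chose the boundaries, and their depth is given as a description without a test.

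The lines were SW480 and SNU-C1, both from colon cancer, HCC1954 from breast cancer and OE33 from esophageal adenocarcinoma, all grown without a treatment named in the labels. In situ Hi-C joins and sequences DNA ends that lie near each other in the nucleus, and chromatin was digested with MboI. A single map represents SNU-C1, HCC1954 or OE33, whereas SW480 has a combined map beside those of replicates 1 and 2, and the combined map equaled the sum of the replicates at 99.89% of its bin pairs. Read pairs within chromosomes 1 to 22 numbered 128394698 in the combined SW480 map, where replicate 1 gave 63519114 and replicate 2 64864646, and 111654971 for SNU-C1, 89618230 in HCC1954 and 87123995 for OE33. The methods state that Hi-C was carried out in duplicate, but they do not say whether the other maps are pools, so replicate spread is known here for SW480 alone. All positions are on hg19 (GRCh37), and cancer cell lines carry rearranged chromosomes that are drawn on this reference.

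TADs are stretches of a chromosome whose loci contact each other more often than loci outside the stretch. Many boundaries are bound by CTCF, a zinc finger protein that stops cohesin as it extrudes a chromatin loop. CTCF recognizes its motif in 1 direction, and loops form mostly between motifs that point towards each other, so that motifs to the left and right of a boundary tend to point away from it. Boundaries are also known to lie near the start sites of active and broadly expressed genes.

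Matches to the 14-letter CTCF consensus were searched on both strands of the reference genome, and 5209 matches were found on chromosomes 1 to 22. The matches below belong to boundaries used in the results, with the match in capitals, 8 reference bases on either side and the strand on which each reads from 5′ to 3′, and the positions given are those of the whole printed stretch. The first is the match within 1 bin of the boundary on chromosome 10 that ranked seventh in strength, at chr10:9373678-9373707 on the plus strand, where no gene is annotated. The next lies at the boundary beside *NXPH1*, at chr7:8405304-8405333 on the minus strand, outside annotated genes.
chr10 boundary, plus strand: ctttactaCCACTAGATGGCAGtcaagtat
NXPH1 boundary, minus strand: gcaacctaCCACCAGATGGCAGaagatgtg

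The other matches are pairs that point away from each other within 1 bin of a boundary, and these boundaries were picked after their values were seen. Beside *SNX19* the minus-strand match at chr11:130786441-130786470 and the plus-strand match at chr11:130793367-130793396 lay in the boundary bin itself and outside annotated genes, and the bin does not show on which side of the boundary each lay. At the boundary beside *BACE2* the minus-strand match was at chr21:42441142-42441171, 1 bin to the left, and the plus-strand match at chr21:42493907-42493936, both intergenic.
SNX19 boundary, minus strand: gctcctcgCCAGCAGAGGGCGCcgggcagc
SNX19 boundary, plus strand: caaaatagCCACCAGAGGGCAGcagaaagt
BACE2 boundary, minus strand: cctcaatgCCAGCAGAGGGCGCgagcggac
BACE2 boundary, plus strand: aagctttcCCAGTAGAGGGCGCtggaggga

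Each line had between 2263 and 2535 boundaries, and more than 55% of the boundaries of every line were shared. SW480 had 2437 boundaries, of which 57.9% were shared, SNU-C1 had 2535 (55.7%), HCC1954 had 2463 (57.3%) and OE33 had 2263 (62.4%). By contrast, 12.3%, 12.8%, 12.4% and 11.4% of all scored bins lay within 1 bin of a boundary in SW480, SNU-C1, HCC1954 and OE33, and the rule itself sets this share to 100% for shared boundaries. The combined SW480 map chose the boundaries and holds the reads of both replicates, and 1392 of the 1411 had a boundary within 1 bin in replicate 1 and 1391 in replicate 2. The 4 lines placed the minimum in the same bin at 377 shared boundaries (26.72%), within a span of 1 bin at 715 (50.67%) and within 2 bins at 319 (22.61%).

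The median strength of shared boundaries was 0.76 for SW480, 0.82 in SNU-C1, 0.80 for HCC1954 and 0.79 in OE33. Over all boundaries of each line the medians were lower, at 0.63, 0.67, 0.66 and 0.68. Single shared boundaries covered a wide range, from a mean over the lines of 0.15 to 2.32, with a median of 0.80. The strongest value was found in SNU-C1 at 485 of them, in OE33 at 412, in HCC1954 at 339 and in SW480 at 175. The maps also differed in depth and in how even the corrected sums per bin were. The part of this in these counts was not tested.

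Contacts across the 1-Mb windows at shared boundaries were well below the chromosome mean in every line. The median insulation score was -0.53 for SW480, -0.59 in SNU-C1, -0.61 for HCC1954 and -0.65 in OE33, which are 0.695, 0.665, 0.653 and 0.637 times the mean of the chromosome. The score was below 0 at 97%, 97.2%, 96.7% and 94.7% of shared boundaries, and its median over all scored bins lay between -0.07 and -0.04. The remaining shared boundaries were local minima within regions of high contact frequency. These scores rest on many read pairs, with a median of 6599, 5378, 4534 and 4114 pairs in the windows of one boundary in SW480, SNU-C1, HCC1954 and OE33 and a lowest count of 937, in OE33.

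**Figure D1:**
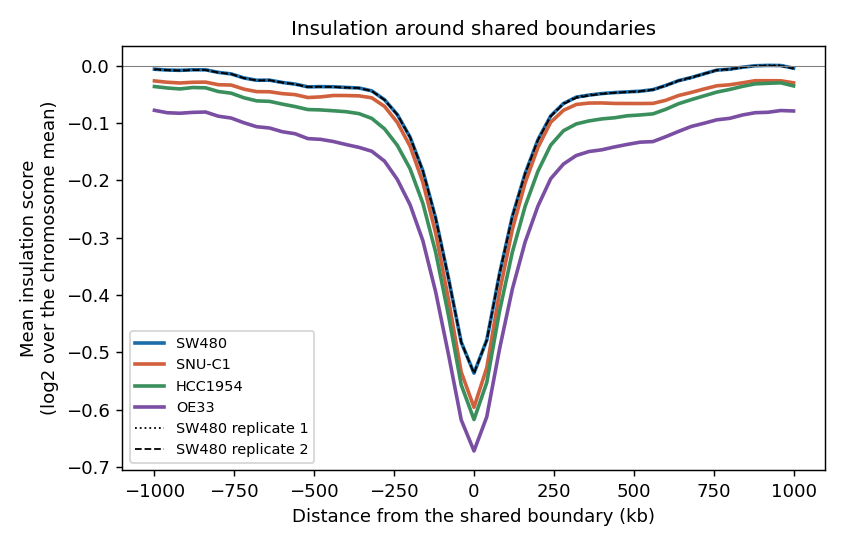
Mean insulation score (y axis, log2 over the chromosome mean) against the distance from the shared boundary (x axis, kb), with 1 line for each of the 4 cell lines and for both SW480 replicates. All maps have their minimum at the boundary, from -0.54 in SW480 to -0.67 in OE33, and both replicates lie on the combined SW480 map.

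The dip was narrow in all 4 lines. The mean score at the boundary bin was -0.54 for SW480, -0.60 in SNU-C1, -0.62 for HCC1954 and -0.67 in OE33, and at 200 kb to the left it was -0.12, -0.14, -0.18 and -0.24. The profiles to the right were nearly mirror images, with -0.13, -0.14, -0.18 and -0.25 at 200 kb. At 1000 kb to the left the mean scores were -0.01, -0.03, -0.04 and -0.08, so OE33 stayed lowest at all these distances.

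Lines differed more from each other than the SW480 replicates did. Between replicates the median absolute difference in strength at a shared boundary was 0.03, with a Pearson correlation of 0.989 across 1373 boundaries found in both. Between lines it was 0.13 (SW480 and HCC1954) to 0.16 (SNU-C1 and OE33), with correlations of 0.727 to 0.816 across the 1411 boundaries. These correlations are across boundaries, which share maps and depth and were all chosen on the strengths themselves. The replicate difference was at most 0.09 at 95% of the boundaries, and the difference between 2 lines at most 0.445 (SW480 and HCC1954) to 0.577 (OE33 and either SNU-C1 or HCC1954). The corrected sums per bin varied less in the SW480 maps than in those of the other lines, and effects of the correction and of the cells cannot be told apart.

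Of the 10 boundaries with the highest mean strength over the lines, 6 lay over or beside a protein-coding gene. A start site within 1 bin was found at 5 of the 10, against 70.2% of all shared boundaries and 41.3% of all scored bins. The strongest lay within *PFKP*, which encodes a phosphofructokinase of glycolysis, at chr10:3120001-3160000, with strengths of 2.43 for SW480, 2.11 in SNU-C1, 2.08 for HCC1954 and 2.68 in OE33. The SW480 replicates gave 2.47 and 2.39 there, so the gap between SW480 and the other lines was larger than that between replicates. Relative coverage is the read pairs per bin of a line over the median of the other 3 lines. From the left to the right of this boundary it changed by 0.77 (log2) in SW480 and by -0.60 in OE33. These steps are between medians of 5 bins a side. The windows there held 1696 read pairs in SW480, the lowest count of that line at a shared boundary, and 1423 in HCC1954. The part of these steps and read counts in the strengths of this boundary was not tested.

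At *HOOK1*, which encodes an adapter of microtubule transport, the boundary at chr1:60280001-60320000 had strengths of 2.14, 2.45, 1.86 and 1.89 in SW480, SNU-C1, HCC1954 and OE33. SNU-C1 was highest there, and the replicates gave 2.15 and 2.13. The boundary at chr6:114240001-114280000 overlapped *HDAC2*, a histone deacetylase gene, and had strengths of 1.52, 1.84, 2.42 and 2.40. HCC1954 and OE33 lay together above both colon lines, and the replicates gave 1.57 and 1.48. The boundary at chr2:209120001-209160000 held the start sites of *IDH1*, a cytosolic isocitrate dehydrogenase, and *PIKFYVE*, a lipid kinase, on opposite strands, with strengths of 1.63, 2.01, 1.84 and 2.53. OE33 was highest and SW480 lowest, with 1.64 in both replicates.

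The other 4 boundaries in this group had no protein-coding gene over the bin or start site within 1 bin. At chr6:1480001-1520000 the strengths were 2.10, 2.08, 1.90 and 1.91, and at chr10:65600001-65640000 they were 1.92, 2.02, 2.09 and 1.96. Both were nearly level over the lines. At chr10:9360001-9400000 the strengths were 1.33, 1.38, 2.38 and 2.53, so that both colon lines lay well below HCC1954 and OE33, and both SW480 replicates gave 1.33. The relative coverage of HCC1954 changed by -0.74 (log2) across this boundary, and the windows there held 1227 read pairs in that line. The part of this step and of the read count in the strengths was not tested. At chr7:41840001-41880000 the strengths were 1.73, 1.26, 2.24 and 2.28, again higher in HCC1954 and OE33.

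Among the 6 beside genes, the boundary at chr16:58760001-58800000 held the start of *GOT2*, a mitochondrial aspartate aminotransferase gene, with strengths of 1.67, 1.96, 1.65 and 2.32. It also had the lowest insulation scores of these 10 boundaries in SNU-C1 and OE33, at -1.79 and -2.46, and scores of -1.55 and -1.64 in SW480 and HCC1954. The boundary beside *NXPH1*, the gene of a neurexin ligand, at chr7:8400001-8440000, had strengths of 1.49, 1.91, 1.93 and 2.20, with SW480 lowest.

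**Figure D2:**
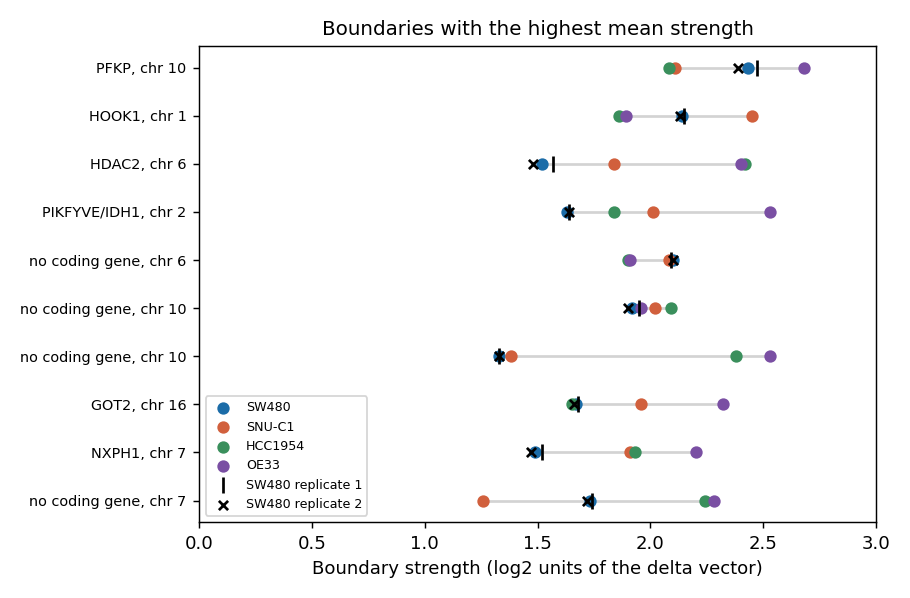
Boundary strength (x axis, log2 units) of the 10 shared boundaries with the highest mean over the lines (y axis, by gene and chromosome), with a dot for each line and black marks for the SW480 replicates. The replicates lie within 0.1 of each other at each of these boundaries, while the lines spread over 0.17 to 1.20.

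Some shared boundaries had nearly the same strength in every line. The smallest range, 0.01, was at chr18:23520001-23560000, with 0.74 in SW480 and SNU-C1, 0.75 in HCC1954 and 0.74 in OE33. The SW480 replicates differed by more than the lines there, at 0.80 and 0.70. The boundary at chr15:50600001-50640000 in *GABPB1*, a subunit gene of the GA-binding transcription factor, had strengths of 1.06 in the first 3 lines and 1.04 in OE33. The boundary at chr3:47840001-47880000, between *SMARCC1*, a subunit gene of the SWI/SNF chromatin remodeler, and the RNA helicase gene *DHX30*, was weak in all lines, at 0.18, 0.18, 0.18 and 0.20. The remaining members of this group overlapped *USP31* (0.36 to 0.39) or lay beside *FBXO33* (0.88 to 0.92). The SW480 replicates also differed by more than the lines at *GABPB1* (1.04 and 1.08), at *SMARCC1* (0.16 and 0.20) and at *USP31* (0.32 and 0.42), but not at *FBXO33* (0.88 and 0.89).

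The largest ranges came from OE33 or HCC1954. At chr22:35640001-35680000, with the start sites of *HMGXB4* and *TOM1*, the strength was 2.86 in OE33 and 1.55, 1.46 and 1.44 in SW480, SNU-C1 and HCC1954. OE33 stood apart from the other 3 lines, which lay close together, and the replicates gave 1.62 and 1.49. At the *CCDC66* boundary, chr3:56560001-56600000, OE33 again was highest, with 2.45 against 1.29, 1.41 and 1.14. The windows there held 1019 read pairs in OE33, near its lowest count of 937 at a shared boundary. Within *KCNMB2*, a subunit gene of a calcium-activated potassium channel, the boundary at chr3:178120001-178160000 was strongest in HCC1954 and weakest in OE33, with 0.75, 0.71, 1.59 and 0.22. The relative coverage of HCC1954 changed by -0.66 across it. At chr4:44680001-44720000, with *GUF1*, *GNPDA2* and *YIPF7*, the strengths were 1.07, 1.30, 2.03 and 0.71 in the same order. At the boundary beside *DUSP26* on chromosome 8 they were 0.46, 1.01, 0.43 and 1.77, and the SW480 replicates gave 0.47 and 0.61. The windows there held 1082 read pairs in HCC1954, the lowest count of that line at a shared boundary. The relative coverage of HCC1954 changed by -0.52 across it. The part of these steps and of low read counts in the strengths was not tested.

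The threshold of 0.1 decided few boundaries. Just inside it were chr19:49480001-49520000 (0.10 in SW480), chr12:122200001-122240000 (0.11 in HCC1954) and chr5:26680001-26720000 (0.11 in OE33). Just outside were loci with a boundary in 3 lines at chr4:163960001-164000000 (0.09 in SW480), chr10:57360001-57400000 (0.09 in OE33) and chr15:93320001-93360000 (0.09 in HCC1954). The chromosome 19 boundary had no boundary within 1 bin in SW480 replicate 2. Of 677 loci with a boundary in 3 lines, only 15 had a weaker minimum within 1 bin in the other line, whereas 311 had its boundary 2 to 5 bins away and 351 had none within 5 bins. The line without the boundary was OE33 at 290 of these loci, HCC1954 at 151, SW480 at 125 and SNU-C1 at 111. OE33 had the fewest read pairs, only slightly fewer than HCC1954, and the part of depth in these numbers was not tested.

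Neighboring shared boundaries lay a median of 1.24 Mb apart, with quartiles of 0.72 and 2.16 Mb, over 1363 intervals. The median was 0.76 Mb with a delta of 120 kb and 3.96 Mb where the minima had to be in the same bin. Of the 1389 pairs of neighbors on a chromosome, 26 with at least 1 Mb of consecutive unusable bins between them, at centromeres and elsewhere, were left out. All boundaries of a line lay a median of 0.8 Mb apart in SW480, SNU-C1 and HCC1954 and 0.88 Mb in OE33. At most 1 Mb separated 554 pairs of neighbors (40.65%), and more than 3 Mb separated 187 (13.72%). Protein-coding start sites per Mb had a median of 6.25 in intervals of at most 1 Mb. The median was 4.61 between 1 and 3 Mb and 3.28 above 3 Mb. Start sites in boundary bins were left out, while the length of an interval included 1 boundary bin. All scored bins together, boundary bins included, held 6.82 per Mb. That is a pooled value and not a median of intervals, so it is not a like measure.

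The closest neighbors, 0.28 Mb apart, lay on chromosome 6 at chr6:41720001-41760000 and chr6:42000001-42040000. Between them were *MED20*, a Mediator subunit gene, *BYSL*, a ribosome biogenesis gene, and *USP49*, a deubiquitinase gene, and the mean strengths of the pair were 0.64 and 0.42. Pairs 0.32 Mb apart flanked *EGLN1*, an oxygen-sensing prolyl hydroxylase gene, and *TSNAX* on chromosome 1 (mean strengths of 0.50 and 1.17), and *RHOB*, a small GTPase gene, on chromosome 2 (0.42 and 0.58). In total 9 intervals were as short as the third shortest. The longest interval without such a gap, 12.96 Mb from chr7:135720001-135760000 to chr7:148680001-148720000, held 95 start sites. The next without a gap were 9.64 Mb on chromosome 4 with 13 start sites, among them *PCDH10*, and 9.44 Mb on chromosome 21 with 12, among them *NCAM2* and *APP*, the amyloid precursor gene. At the right end of the chromosome 21 interval the mean strength was 1.80 and at its left end 0.51.

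Chromosomes carried between 0.456 (chromosome 21) and 0.713 (chromosome 20) shared boundaries per scored Mb. The density of genes and that of boundaries did not follow a single order. Chromosomes 20, 12 and 11, with 8.45, 8.15 and 9.75 start sites per Mb, had the most, at 0.713, 0.694 and 0.672. Chromosome 19, with 28.5 start sites per Mb, had 0.479, chromosome 4, with 3.73, had 0.537, and chromosome 18, with 3.49, had 0.648. The median of the mean strength per chromosome ran from 0.74 on chromosomes 18, 19 and 20 to 0.95 on chromosome 16.

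Contacts over short distances were reduced across shared boundaries and raised on both sides. For bin pairs 80 to 480 kb apart, contacts were divided by the mean of the map at the same distance (O/E), and pairs spanning the boundary were compared with pairs on its left and right. In SW480 the median O/E was 0.611 across, 1.17 on the left and 1.17 on the right, in SNU-C1 0.591, 1.16 and 1.16, in HCC1954 0.572, 1.15 and 1.15, and in OE33 0.580, 1.14 and 1.13. Over all scored bins the 3 medians lay between 0.976 and 1.0 in the 4 lines. The median log2 of across over beside was -0.93, -0.98, -1.01 and -0.94, with -0.93 in both SW480 replicates, while over all bins it was 0.02 to 0.03. Across was lower than beside at 99.6%, 99.7%, 99.6% and 99.6% of shared boundaries, against 47.3%, 47.9%, 47.4% and 48% of all scored bins. These distances lie within the insulation window, so the values follow from the rule.

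Bin pairs 2040 to 4000 kb apart lie outside that window and were not used to find the boundaries. Contacts across were lower than beside there as well, by a smaller amount. The median log2 of across over beside was -0.11 for SW480, -0.11 in SNU-C1, -0.14 for HCC1954 and -0.15 in OE33, with -0.11 and -0.10 in the SW480 replicates, and -0.01, -0.01, -0.04 and -0.03 over all scored bins. It was below 0 at 62.4%, 62%, 65.5% and 61.8% of 1217 shared boundaries with enough bins, against 51.4%, 51.3%, 54.2% and 52.4% of all scored bins. In all 4 lines together it was below 0 at 555 (45.6%), against 35.7% of all scored bins. Many of the shared boundaries thus had no lower contact across at this range, and the quartiles of shared boundaries and of all bins overlapped in every line. Pairs this far apart also span other boundaries, whose share in these values was not tested.

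**Figure D3:**
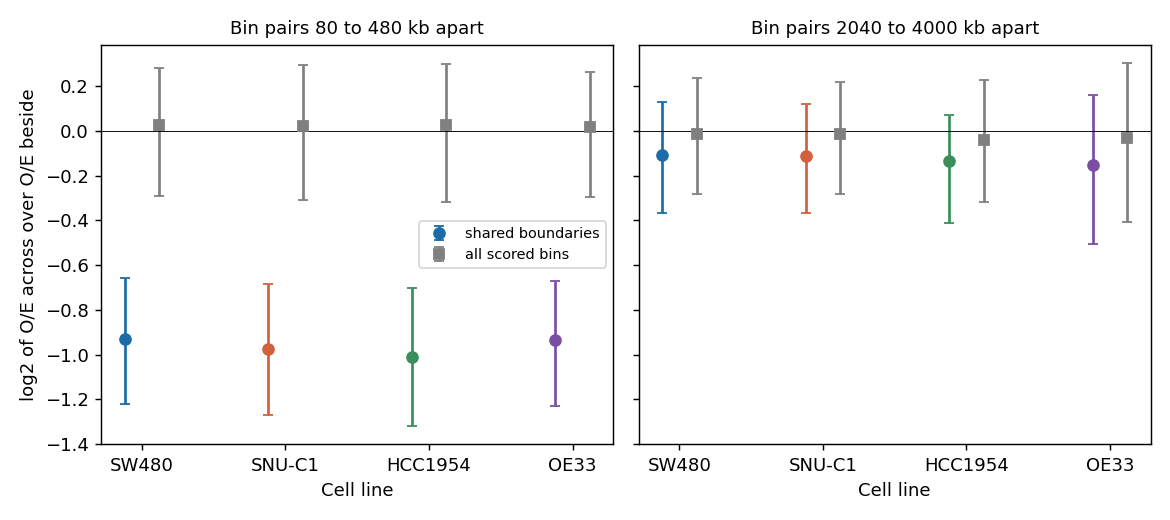
Median log2 of O/E across over O/E beside (y axis) in each cell line (x axis) for bin pairs 80 to 480 kb apart (left) and 2040 to 4000 kb apart (right), with bars from the lower to the upper quartile over bins. Shared boundaries (circles) lie between -1.01 and -0.93 at short and between -0.15 and -0.11 at long distances, and all scored bins (gray squares) lie between -0.04 and 0.03.

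The HOXA genes, transcription factors that pattern the body axis, were divided by a shared boundary with fewer contacts across than beside it at short distances. Its insulation scores were -0.65, -0.49, -0.58 and -0.73 in SW480, SNU-C1, HCC1954 and OE33, near the medians of the shared boundaries. At chr7:27200001-27240000, within the cluster, the log2 of across over beside at 80 to 480 kb was -2.27 for SW480, -2.21 in SNU-C1, -2.31 for HCC1954 and -2.37 in OE33. These values were nearly level over the lines and far below the medians of the shared boundaries, whereas the strength, which is taken over wider windows, was 1.06, 0.85, 0.81 and 1.01. Beyond 2 Mb, contacts across the HOXA boundary were higher than beside it in all 4 lines, with 0.24, 0.13, 0.16 and 0.37. At the *HDAC2* boundary the values at 80 to 480 kb were -2.0, -2.28, -2.46 and -2.54, and at the boundary in *PFKP*, the strongest of all, they were -1.30, -1.21, -1.03 and -1.39. Strength and the contrast at short distances thus did not rank these boundaries alike.

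Neither side of the shared boundaries was regularly the denser one. In all 4 lines the right side had the higher O/E at 387 of 1407 shared boundaries and the left side at 380. Over all scored bins 66.8% had the same side, left or right, higher in all lines, which compares with both counts together. The lines thus agreed on the denser side less often at shared boundaries than over all scored bins. At 0 shared boundaries did the sides differ 2-fold or more in every line, as they did at 0.0568% of all scored bins.

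A and B compartments, the gene-rich and gene-poor parts of the contact pattern, were called from the contacts of each chromosome at distances of at least 2 Mb, after a split at its widest gap. The leading or the second eigenvector was taken, whichever followed the start sites more closely, and it was the second in 9 of 160 maps. Shared boundaries lay between opposite compartments in all 4 lines at 138 of 1411 (9.78%), against 4.24% of all scored bins. Both sides were A in all lines at 430 (30.5% against 25.4%) and B at 176 (12.5% against 29.1%). At 667 (47.3%) the lines did not agree, as at 41.2% of all bins, so these calls describe a part of the boundaries only. Left of the gap on chromosome 10, SW480 and OE33 took the second eigenvector and SNU-C1 and HCC1954 the leading one. Lines also differed in this on parts of chromosomes 8, 12 and 19. The correlation with start sites was as low as 0.195, in OE33 left of the gap on chromosome 6. The part of these choices in the disagreement was not tested. The boundaries at *GOT2*, at *IDH1* and at chr10:65600001-65640000 were among those with A on the left and B on the right in every line.

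Protein-coding genes began near most shared boundaries. At 990 of 1411 (70.16%, exact 95% binomial interval 67.7% to 72.54%, counting error only) a start site lay within 1 bin, against 41.3% of all scored bins. In the boundary bin itself a start site lay at 573 (40.61%), against 19.9%. The mean number within 1 bin was 1.54 against 0.816. Start sites were most dense in the boundary bin, with 59.9 per 100 bins, and fell to 49.7 and 43.4 in the bins to the left and right, to 26.9 and 28.1 at 200 kb, and to the 27.3 of all scored bins. Both strands contributed, with 31.1 plus-strand and 28.8 minus-strand start sites per 100 boundary bins.

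The share with a start site was higher the more lines had the boundary. It was 44.9% at the 574 loci with a boundary in 1 line, 49.8% at the 480 of 2 lines, 64.4% at the 677 of 3 lines and 70.2% at the shared boundaries. The highest strength of any line rose with this number too, with medians of 0.31, 0.45, 0.66 and 0.99. It is a highest value taken over more lines, and the part of that in the rise was not tested. Among the shared boundaries themselves the share changed little with strength, at 66.9%, 68.6%, 72.8% and 72.4% in 4 equal groups from the weakest to the strongest. The bins of shared boundaries had a median GC content of 40.9% and 9.88 CpG per kb, against 39.6% and 7.88 in all scored bins. At loci of 3, 2 and 1 lines the medians were 41.1%, 40% and 38.9% GC and 10, 8.65 and 7.46 CpG per kb. Loci of 3 lines were thus as rich in both as shared boundaries. The separate parts of base composition and start sites were not tested.

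Most shared boundaries lay at least partly outside genes. The bin lay wholly within a protein-coding gene at 358 (25.37%), against 31.9% of all scored bins, and within a gene of at least 500 kb at 74 (5.245%), against 9.57%. Among these 74 were boundaries within *KCNMA1*, a potassium channel gene (mean strength 1.50), *AKAP6*, a kinase anchor gene (1.46), and *RORA*, a nuclear receptor gene, which held a pair (1.02 and 0.59). *DLG2*, a synaptic scaffold gene, held 3 (1.18, 0.65 and 0.50). Each of these long genes thus held a boundary in all 4 lines.

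The boundaries with the most start sites were in gene clusters. On chromosome 3, chr3:50320001-50360000 had 14 start sites within 1 bin, including the tumor suppressor *RASSF1* and the hyaluronidase genes *HYAL1*, *HYAL2* and *HYAL3*, with strengths of 0.88, 1.17, 1.10 and 1.01. The replicates of SW480 gave 1.34 and 0.89 there, which are farther apart than the lines. On chromosome 11, chr11:64000001-64040000 also had 14, among them *VEGFB*, a vascular growth factor gene, *BAD*, a gene of apoptosis, and *ESRRA*, an orphan nuclear receptor gene, with strengths of 0.78, 0.89, 0.84 and 0.72. The chromosome 19 boundary just inside the threshold had 12, among them *BAX* and *FTL*. The histone gene cluster at chr6:26000001-26040000 had 10 and strengths of 1.51, 1.73, 1.32 and 1.47, and the HOXA boundary had 10. The clusters therefore spanned weak and strong boundaries.

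Over all protein-coding genes with a scored start bin, 2155 of 16202 (13.3%) began within 1 bin of a shared boundary, and 845 (5.22%) in the boundary bin, while 7.11% of the scored bins lie within 1 bin of one. The shares of gene groups are given beside this one, and no test was made, because the genes of a group often share a bin. Of the genes of the cytosolic ribosome 19 of 68 (27.9%) began there, at 18 boundaries. *RPS23* was at a boundary with strengths of 1.74 for SW480, 1.51 in SNU-C1, 1.85 for HCC1954 and 1.76 in OE33, *RPLP1* at one with 1.64, 1.43, 1.64 and 1.55, and *RPS29* at one with 1.40, 1.48, 1.37 and 1.96. These are the strongest of the 18, and the genes named from the following groups were taken by strength as well. Nuclear genes of oxidative phosphorylation gave 15 of 74 (20.3%), with *NDUFB9*, a complex I subunit gene, at a boundary of mean strength 1.58 and *COX7A1*, of cytochrome oxidase, at one of 1.42. Proteasome genes gave 6 of 34 (17.6%), with means of 0.76 at *PSMC5* and 0.72 at *PSMC3*.

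Among families that lie in tandem arrays the shares were on either side of the 13.3% of all genes, and no test was made. Of odorant receptor genes 4 of 305 (1.31%) began within 1 bin, of keratin and keratin-associated genes 1 of 142 (0.704%), of clustered protocadherin genes 0 of 53, and of zinc finger (ZNF) genes 22 of 371 (5.93%). Replication-dependent histone genes gave 9 of 55 (16.4%), all at the 1 boundary on chromosome 6. Genes of developmental transcription factors gave 30 of 145 (20.7%) at 11 boundaries, including *SOX6* (mean strength 1.24), *DLX5* (1.05) and several HOXA genes. Each array counts as few independent places, which the shares by gene do not show.

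**Figure D4:**
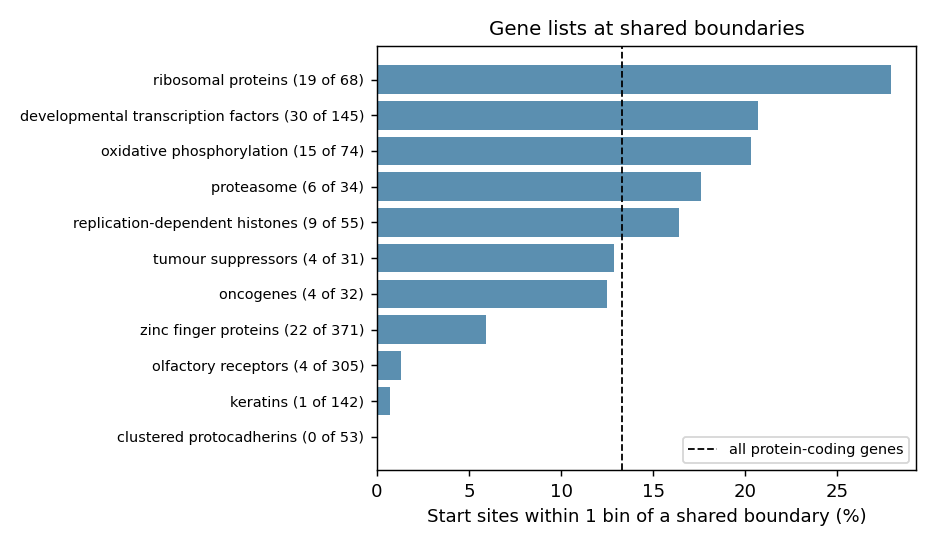
Share of the start sites of each gene group that lay within 1 bin of a shared boundary (x axis, percent), with the counts beside each group name (y axis) and a dashed line at the 13.3% of all protein-coding genes. Ribosomal protein genes have the longest bar, 27.9%, and odorant receptor, keratin and clustered protocadherin genes lie at or below 1.31%.

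The shares of cancer genes near shared boundaries were close to that of all genes, and no test was made. Of the tumor suppressor genes 4 of 31 (12.9%) began within 1 bin. Among them were *WWOX* (0.88, 0.85, 0.90 and 1.04 in SW480, SNU-C1, HCC1954 and OE33) and *TSC1*, an inhibitor of mTOR signaling (1.0, 0.84, 0.98 and 0.73). Of the oncogenes 4 of 32 (12.5%) did, namely the ubiquitin ligase gene *MDM2* (0.46, 0.94, 0.51 and 0.73), its relative *MDM4* (0.63, 0.53, 0.44 and 0.76), the receptor gene *ERBB3* (0.53, 0.39, 0.36 and 0.53) and the cyclin gene *CCND3* (0.46, 0.33, 0.36 and 0.52). These 4 had a mean strength below 1. Counted in whole bins, the shared boundary nearest to the start of *MYC* lay 880 kb to the left (1.09, 1.42, 1.45 and 0.78). Those nearest to *ERBB2* and *TERT* lay 3560 kb away. The paper reports rearrangements at *MYC* in SW480 and HCC1954, at *TERT* in HCC1954 and around *ERBB2* in OE33. Their part in these distances was not tested.

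At developmental loci whose domains are well described, 3 of 15 scored start sites lay within 1 bin of a shared boundary, those of *LMBR1*, *HOXA13* and *HOXD13*, while 13.3% of all protein-coding genes did, and no test was made. *EPHA4*, an ephrin receptor gene, and *PAX3*, a transcription factor gene, lay on either side of the boundary at chr2:222840001-222880000, 440 and 320 kb away in whole bins, with strengths of 0.87, 0.76, 0.93 and 0.56. *KCNJ2* and *SOX9* were separated at chr17:68600001-68640000, 440 kb from *KCNJ2*, with strengths of 1.13, 1.22, 1.09 and 1.19. *LMBR1*, whose intron holds a limb enhancer of *SHH*, began in the boundary bin chr7:156680001-156720000 (0.73, 1.10, 0.97 and 0.73), while the shared boundary nearest to *SHH* itself lay 960 kb to its left. Counted in whole bins, *HOXD13* began 40 kb and *HOXD1* 80 kb from the boundary at chr2:176960001-177000000 (0.89, 0.76, 0.89 and 0.42). The other distances in this paragraph are counted in the same way. The nearest shared boundary was 400 kb from *HOXC4*, 480 kb from *HOXC13*, 720 kb from *HOXB1*, 920 kb from *HOXB13* and *IHH*, and 1200 kb from *SOX9*. The starts of *IGF2*, *H19*, *KCNQ1* and *APC* lay in bins that were not scored.

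CTCF consensus matches lay within 1 bin of 534 shared boundaries (37.85%), against 18.3% of all scored bins. With a shorter core that leaves positions free, the shares were 95.7% and 90.3%. For the 14-letter consensus the share was 24.2%, 30% and 34.9% at loci with a boundary in 1, 2 and 3 lines. Like the share with a start site, it differed little with strength among shared boundaries, at 36.3%, 40.8%, 37.7% and 36.6% in 4 equal groups from the weakest to the strongest. Of the 10 strongest, 8 had no match within 1 bin. A match to the consensus is a stretch of letters and not a measured site, and CTCF binding was not measured in these maps.

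The strand of the matches differed between the sides of the boundary. In the bin to the left there were 11.4 minus-strand and 3.69 plus-strand matches per 100 bins, and in the bin to the right 3.84 minus-strand and 11.5 plus-strand matches. The boundary bin had 9.85 plus-strand and 8.36 minus-strand matches, and all scored bins had 3.73 and 3.59. The density of the strand pointing towards the boundary was thus close to that of all bins, and that of the strand pointing away was raised. Further out the minority strand fell below all bins, with 2.20 plus-strand matches per 100 bins at 160 kb to the left and 2.06 minus-strand matches at 80 kb to the right. For start sites the strands were close to each other on both sides, with 25.3 plus-strand and 24.4 minus-strand sites per 100 bins in the bin to the left and 20 and 23.4 in the bin to the right.

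**Figure D5:**
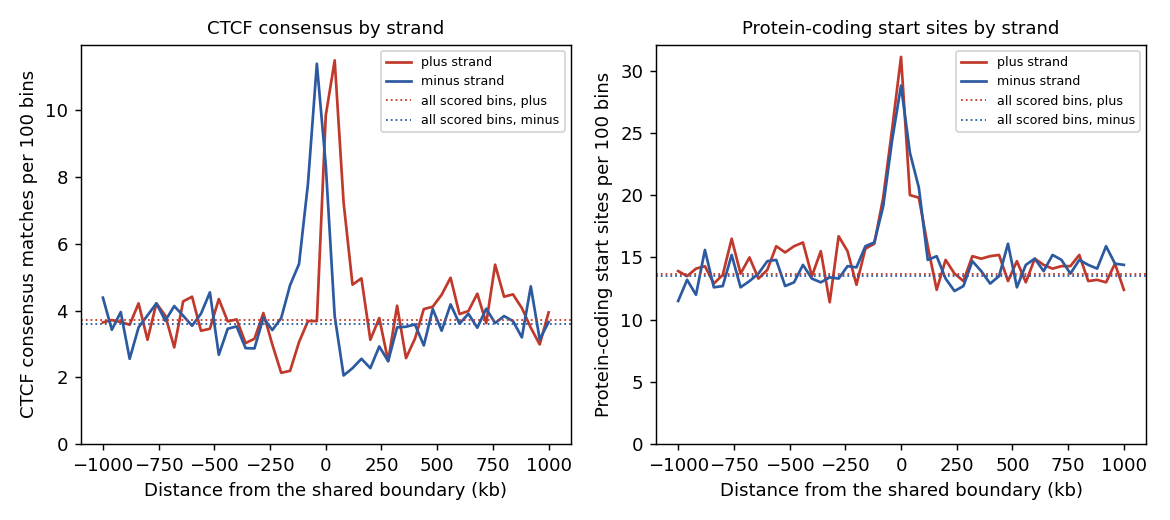
Matches to the CTCF consensus (left, y axis per 100 bins) and protein-coding start sites (right, y axis per 100 bins) by strand against the distance from the shared boundary (x axis, kb), with dotted lines for all scored bins. The minus-strand matches peak at 11.4 in the bin to the left and the plus-strand matches at 11.5 in the bin to the right, while start sites of both strands peak in the boundary bin.

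A minus-strand match in the boundary bin or the bin to its left together with a plus-strand match in the boundary bin or the bin to its right was found at 56 shared boundaries (3.97%), against 0.806% of all scored bins. The opposite arrangement was found at 33 (2.34%), against 0.68%. A boundary bin with both strands counts in both groups. The boundaries whose matches are printed above, picked from the strongest of the 56, had strengths of 1.50, 1.23, 1.22 and 1.58 beside *SNX19* and 1.12, 0.79, 1.27 and 2.08 beside *BACE2*. At *BACE2* the strength in OE33 stood above the other lines. The windows there held 1143 read pairs in OE33, near its lowest count of 937 at a shared boundary. The relative coverage there was 0.484 in OE33. In SNU-C1, the line with the lowest strength, it changed by -0.62 (log2) across the boundary. The part of these in the strengths was not tested. Of the 56, 11 were among the strongest 352 shared boundaries and 20 among the weakest 353.

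Relative coverage changed abruptly at some of these boundaries. A step of at least 0.5 (log2) between the left and right sides occurred in at least 1 line at 199 shared boundaries (14.1%), against 8.38% of all scored bins. HCC1954 had a step at 113 shared boundaries (8.01%, against 4.36% of all scored bins), OE33 at 73 (5.17% against 3.48%), SNU-C1 at 34 (2.41% against 1.76%) and SW480 at 22 (1.56% against 1.24%). The median range of strength over the lines was 0.36 at the 199 boundaries with a step and 0.30 at the 1212 without one. The highest coverage at a shared boundary relative to the other 3 lines, 23.7, was in SNU-C1 at chr11:34920001-34960000, which holds the opposite start sites of *APIP* and *PDHX*. The strength there was 1.05 in SNU-C1 and 0.46, 0.60 and 0.66 in SW480, HCC1954 and OE33, and the relative coverage in SNU-C1 changed by 4.36 (log2) across the boundary. The part of these steps in the strengths was not tested.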

How the data were processed

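Reads of in situ Hi-C had been mapped by the authors with BWA-MEM (hg19). Picard served to drop duplicate reads, and the maps, from pipelines of the laboratory, are iteratively corrected. For tool versions and read filters the sources used here give nothing. The deposited values are a signal, the contact frequency after correction between different 40-kb bins. Corrected sums per bin within a chromosome had a median coefficient of variation of 1.94% in SW480 and of 8.39% to 15.7% in the other lines, and pairs between chromosomes were 1.2% of the listed pairs in SW480 and 46.2% to 68% in the others. The methods name 1 correction for all lines, whether it was applied in the same way to SW480 is not stated, and values were set side by side across lines.

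Read pairs were recovered by fitting a factor for each bin, on pairs between chromosomes or, for SW480, on pairs at least 5 Mb apart. Of values up to 20.5 read pairs, 99.97% to 100% came out within 0.02 of a whole number. They gave depth, coverage and the setting without correction. Of 72036 bins, 62198 had at least 0.25 of the median coverage in each line, and 59426 had 0.5 of their windows usable. Insulation, O/E, compartments and matches were computed with numba 0.67.0, numpy 2.4.6, pandas 2.3.3, scipy 1.17.1 and matplotlib 3.10.9 under Python 3.11.15. Expected values were means at each distance. Compartments used 200-kb blocks, and their eigenvector and sign were set by the start sites, so that A holds more of them. Genes were those of GENCODE v44 lifted to GRCh37, whose chromosome lengths match the bins. The 5′ end of each of 19229 protein-coding genes was its start site, and 16202 lay in scored bins.

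Named were the 10 boundaries of highest mean strength, the 5 with the smallest and the 5 with the largest range, the 3 just inside and just outside the threshold, the 3 shortest and longest intervals, the 5 with the most start sites, and up to 5 genes per gene group in order of mean strength. The boundaries with opposed matches, with the highest coverage and within long genes were picked with their values in view. Some genes and boundaries of these groups are not reported here. The members and gene groups were chosen with earlier results of these data known. With 1 map per line, and because bins and genes are not replicates, no p-value was computed. Intervals cover counting error only, and the calculation was tested on simulated data.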

Additional observations from a re-analysis of the deposited data

How the results depend on the processing

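The number, strength, insulation score and spacing of shared boundaries were recomputed under other windows, deltas, thresholds, matching distances, filters and values. So were contacts at 80 to 480 kb and the shares with a start site or a CTCF match. Contacts at 2040 to 4000 kb, compartments, strands of matches, gene groups, loci of fewer lines and coverage steps were not recomputed. Changes were made 1 at a time and gave 14 numbers of shared boundaries and 62 other values. Of the other values 44 moved by less than their own spread (over the 4 lines, over chromosomes for the spacing, or the counting interval for a share) and 18 by more. The number of shared boundaries, 1411, was 1851 with an insulation window of 480 kb, 1271 with 2 Mb, 2096 with a delta of 120 kb, 1362 with a strength of at least 0.2, 1700 with a match within 2 bins, 1310 from read pairs without correction and 1174 with bins of at least 0.5 of the median coverage. It fell to 377 when the minimum had to be in the same bin. Without one SW480 replicate it was 1407 to 1420. With 3 lines, chosen as a setting after the data were seen, it was 1549 to 1723, the highest without OE33. Of the 1411, 73.9% were also found within 1 bin with the window of 2 Mb, 81.1% with 480 kb, 76.7% without correction, 77.5% with the coverage filter and 93% with the delta of 120 kb.

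With the window of 480 kb the mean of the line medians was 1.23 for strength and -0.68 for the insulation score, the spacing was 0.96 Mb, and 63.6% had a start site within 1 bin. With the window of 2 Mb strength was 0.51 and the score -0.46. With the delta of 120 kb strength was 0.65, the score -0.54, the spacing 0.76 Mb, the log2 of across over beside -0.89, and 40.7% had a CTCF match. With the minimum in the same bin strength was 0.86, the spacing 3.96 Mb, the log2 of across over beside -1.12, and 35.3% had a CTCF match. With a match within 2 bins the log2 of across over beside was -0.91. In the boundary bin itself 40.6% had a start site. A shorter CTCF core with free positions was found within 1 bin of 95.7% of shared boundaries and of 90.3% of all scored bins, so that core hardly separates them. Shared boundaries thus depended most on how closely the minima had to coincide, and the scale of strength on the window. The cause of the other changes was not tested.

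Bins of 40 kb place a boundary no more finely than the bin, 1 map per line leaves differences between lines without replicates outside SW480, and OE33 had the fewest read pairs. No paired analysis was possible because replicate numbers exist for SW480 only and no result comes from a test.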
